A study of Rattus norvegicus with 20 samples.

Results

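Cytosolic ribosomal protein genes encode the proteins that are assembled with ribosomal RNA into the ribosomes of the cytoplasm. They were taken from the gene table by symbol: Rpl or Rps followed by a number and, where present, an a or an x, together with Rplp0, Rplp1, Rplp2 and Rpsa. Of the 19060 genes listed, 73 carried such a symbol, 2 of these were left out by the rule, and 71 were described. They comprised 43 genes of the large subunit and 28 of the small subunit, and all 71 passed the filter on low counts that left 14794 genes for testing. The choice by symbol is not complete. Rpl35a, Rpl37a, Rps9 and Rps19 were not found under those symbols, and 27 further rows with names of the family fell outside the rule. Of these, Rps19l2, at a mean of 1902 TPM, and Rps9l1, at 1184 TPM, were as abundant as the genes described. Whether these are the usual Rps19 and Rps9 genes under another symbol was not settled, and they are not counted among the 71.

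The small subunit decodes messenger RNA and the large subunit joins amino acids. Each ribosome holds in general a single copy of each protein, with the acidic stalk proteins P1 and P2 as the exception, and proliferating or growing cells make the proteins together with ribosomal RNA. Transcripts of these genes typically begin with a cytosine followed by a run of pyrimidines, the terminal oligopyrimidine (TOP) tract, through which the kinase complex mTORC1 controls their translation. That control acts on how often a transcript is translated and need not alter how much of it there is, and the measurements here are of transcript amount. Some of the proteins act outside the ribosome: Rpl5 and Rpl11, with 5S ribosomal RNA, bind the p53 inhibitor Mdm2 when ribosome assembly fails, Rps6 is the substrate that S6 kinase phosphorylates, and Rpsa was first known as a laminin receptor.

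Lung RNA of rats was sequenced in 20 libraries, 5 in each of 4 groups, with 5 animals per group by the study's design. The labels give no strain, genotype, sex, age or time of collection. In the Sham group the abdomen was opened and the caecum handled but neither tied nor pierced. The CLP group underwent caecal ligation and puncture, which releases intestinal contents into the peritoneal cavity; here it served as the model of acute respiratory distress syndrome. The Sham+VNS and CLP+VNS groups had the same operations and vagus nerve stimulation (VNS) on the right cervical side. All groups therefore shared abdominal surgery, and a cervical operation without stimulation is not described for the other groups. The replicate numbers are those of the labels, which run to 6 in the CLP group and to 11 in the CLP+VNS group.

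Total counts ranged from 13729654 to 14453188 per library. Markers of alveolar type 2 cells such as Sftpc and Sftpb, which define lung tissue, summed to 18390 to 33310 CPM in the 20 libraries. CPM are counts scaled to a common library size. The library Sham 1 stood apart, with adipocyte markers at 531 CPM against a median of 12.1 CPM in its group, and Sham+VNS reached 171 CPM in 1 library. Markers of several cell types also differed between operations, beside 19.8% of all tested genes higher and 20.5% lower in CLP against Sham. Neutrophil markers summed to 340 to 848 CPM in Sham and 2856 to 4644 CPM in CLP, with 7 of 7 tested higher, and T cell markers to 70.1 to 98.0 CPM in Sham and 34.8 to 40.7 CPM in CLP, with 7 of 7 lower; Ltf, a neutrophil granule gene, was at 0 in 4 of 5 libraries of each of these groups. B cell markers were lower for 4 of 5 genes and those of monocytes and macrophages higher for 4 of 6. Among markers of other cells, 3 of 4 of alveolar type 1 cells, 2 of 5 of endothelium, 4 of 4 of cardiac muscle and 2 of 2 tested of adipocytes were lower in CLP. Their summed levels in Sham and CLP were 3435 to 4986 and 2665 to 3984 CPM for alveolar type 1 cells, 2744 to 3176 and 2041 to 2696 CPM for endothelium, and 9.59 to 84.6 and 4.397 to 12.7 CPM for cardiac muscle. In bulk lung, fewer cells of a type and less RNA per cell cannot be told apart, and the part of these cell changes in the results that follow was not tested.

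Reads shared between gene copies matter in this family, because processed pseudogenes are numerous. Estimated counts that are not whole numbers can arise when a read is divided between features. Of the 71 genes, 50 had such a value in at least 1 library, and 61.3% of their values were not whole, against 8.28% of the values of all other genes. Rplp0 and Rpl11 had whole counts in all 20 libraries, whereas Rpl39, Rpl10 and Rpl12 had none, so the levels of the latter can depend on how the authors divided reads. The same limit holds for Rps2 and Rpl36, whose counts were fractional in 95% and 75% of the libraries.

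The stretch around the transcription start is where the TOP tract lies, and it is shown as a description. Whether a run goes with the levels or changes of these genes was not tested. RefSeq promoters of the GRCr8 assembly, a later build than the mRatBN7.2 named in the submitters' processing notes, were matched for 56 of the 71 genes by gene identifier. A run of 8 or more C or T, on the sense strand, lay within or reached into the 15 bases on either side of the annotated start in 44 of 56 genes (78.6%), against 18.8% of the 27457 genes in that table and 17.8% of the tested genes that it holds. The run covered the first transcribed base itself in 27 of 56 genes (48.2%), against 4.67% of all genes. Runs of G or A, which are the same motif on the other strand, were found in the same window in 2 of 56 genes (3.57%), against 20.5% of all genes. The windows of the 6 genes that passed the test between CLP and Sham, of Rpl12, whose level differed most between animals, of Rps24 and Rpl34, whose transcripts are described separately, and of Rps23, which has the longest run that covers a start, are printed 5′ to 3′ from 15 bases before the start to 15 bases from it onward. The pyrimidine run is in capitals where it falls in the window.
Rpl39 (chrX:121195882-121195911, minus strand): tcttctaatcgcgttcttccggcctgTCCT
Rps2 (chr10:14251833-14251862, plus strand): CCTCTTCTTTTTCTTCgggaaaacacgtga
Rpl10 (chrX:157205835-157205864, plus strand): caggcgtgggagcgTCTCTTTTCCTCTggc
Rplp0 (chr12:46718376-46718405, minus strand): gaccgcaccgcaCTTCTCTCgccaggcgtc
Rpl36 (chr9:1533765-1533794, plus strand): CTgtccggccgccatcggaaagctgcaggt
Rpl11 (chr5:153560788-153560817, minus strand): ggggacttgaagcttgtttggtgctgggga
Rpl12 (chr3:36661925-36661954, plus strand): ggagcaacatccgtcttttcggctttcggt
Rps24 (chr16:96502-96531, plus strand): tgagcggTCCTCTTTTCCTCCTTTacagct
Rpl34 (chr2:221962269-221962298, minus strand): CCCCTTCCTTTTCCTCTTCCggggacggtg
Rps23 (chr2:23814502-23814531, plus strand): tgggtccttcctgCCTCTCTTCTCTCTTTC
In Rps2, Rpl10 and Rplp0 the run covers the annotated start. In Rpl39 it begins 12 bases into the transcript and in Rpl36 it ends 14 bases before the start. Rpl11 and Rpl12 have no run of that length in this window, which says only that these letters are not there at the annotated position.

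Ribosomal protein transcripts were among the most abundant of the lung. Levels per transcript length, in TPM, which sum to the same total in every library, had a median of 1768 over the 71 genes, and 52 of the 100 genes with the highest mean TPM belonged to the family. Mean TPM exceeded 500 for 66 genes, 1000 for 59 and 2000 for 26. The range was nevertheless 54.7-fold, although the proteins are mostly present once per ribosome. Its low end was Rpl39, at 107 TPM and with fractional counts in all libraries, and the next lowest gene was Rpl28, at 234 TPM.

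The 5 highest came from both subunits: Rps29 at 5845 ± 605 TPM (SD, n = 20 libraries), Rps27 at 4312 ± 447, Rpl37 at 4213 ± 371, Rpl13a at 3251 ± 210 and Rps23 at 3042 ± 193. The 5 lowest belonged to the large subunit, with Rpl36a at 441 ± 34.7 TPM, Rpl7a at 355 ± 29.3, Rpl15 at 274 ± 14.6, Rpl28 at 234 ± 17.2 and Rpl39 at 107 ± 24.3. Rps27 and Rpl37 differed by less than the SD of either, and Rpl13a and Rps23 by less than the SD of Rpl13a only. The other neighbours in these lists differed by more than their SD. These ranks are per transcript length and are not those by counts. In Sham, Rps29 averaged 189 CPM, below Rpl15 at 322 CPM and Rps2 at 814 CPM. The part of transcript length in the range of TPM was not tested. The stalk genes were spread through the middle, with Rplp1 at 2563 ± 124 TPM, Rplp0 at 1508 ± 78.5 and Rplp2 at 1446 ± 137. Rps6 lay at the median, at 1768 ± 104 TPM, followed by Rpsa at 1273 ± 70.0, Rpl11 at 1232 ± 111 and Rpl5 at 1010 ± 79.9.

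The family varied little between libraries. The coefficient of variation of TPM over all 20 libraries, group differences included, had a median of 7.35% and ran from 4.86% for Rplp1 to 22.9% for Rpl12. For 1332 other genes above 100 TPM the median was 12.1%. Rpl39, at 22.8%, was the second most variable and is also the gene with the lowest count.

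The summed share of the family was similar in all groups. It took 2.75 ± 0.20% of all counts in Sham (SD, n = 5), 2.59 ± 0.06% in Sham+VNS, 2.67 ± 0.10% in CLP and 2.56 ± 0.10% in CLP+VNS. By library, the Sham shares were 2.95, 2.46, 2.64, 2.80 and 2.92%, the widest spread of the 4 groups, and they enclosed every CLP value, which were 2.66, 2.53, 2.64, 2.79 and 2.74%. Sham+VNS libraries held 2.51, 2.60, 2.64, 2.52 and 2.66%, and CLP+VNS libraries 2.63, 2.47, 2.68, 2.58 and 2.45%. The groups overlapped in each pair, and no test was applied to this sum.

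On the TPM scale the same genes took 14.0 ± 0.81% in Sham, 13.0 ± 0.28% in Sham+VNS, 13.0 ± 0.61% in CLP and 12.5 ± 0.51% in CLP+VNS. Here the Sham libraries, at 12.98 to 15.12%, did not enclose those of CLP, at 11.97 to 13.63%, because CLP 3 lay below them. The CLP+VNS libraries, at 11.86 to 13.07%, overlapped Sham only through Sham 2. The balance of the subunits was even steadier, with a ratio of large to small subunit TPM of 1.18 ± 0.02 in Sham, 1.18 ± 0.02 in Sham+VNS, 1.18 ± 0.02 in CLP and 1.19 ± 0.02 in CLP+VNS. Expressed as the median deviation of the 71 genes from their own means, the libraries ran from 0.13 log2 units above, in the library Sham 1, to 0.10 below, in CLP+VNS 11 and Sham 2.

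**Figure D1:**
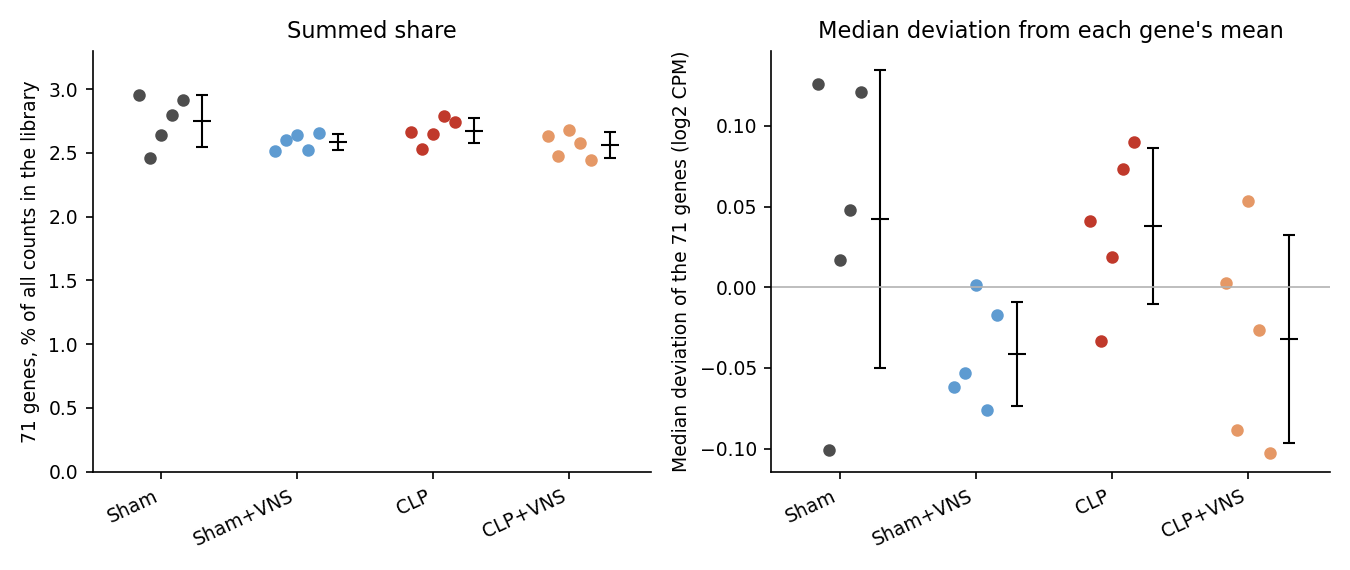
Left, the share of all counts taken by the 71 genes, in percent; right, the median deviation of the 71 genes from their means over all libraries, in log2 CPM. Each point is 1 library, and the bar beside each group gives the mean and SD of 5 libraries. The Sham libraries spread from 2.46 to 2.95% of counts and enclose those of CLP.

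The first comparison asked how the sepsis operation altered these transcripts, CLP against Sham. The family as a whole was centred near 0: the median log2 fold change was -0.003 over the 71 genes and -0.013 over all tested genes, with -0.013 for the large and 0.008 for the small subunit. Rpl39, Rps2, Rpl10 and Rplp0 rose, and Rpl36 and Rpl11 fell. These 6 genes, 8.45% of the family, passed the test, where 40.3% of all tested genes did. By direction, 4 of 71 were higher, beside 19.8% of all genes, and 2 were lower, beside 20.5%. Among 10784 other genes at or above the level of Rpl39, 44.3% passed. The test was edgeR's quasi-likelihood test with Benjamini-Hochberg adjustment at 0.05 over all tested genes, and at an unadjusted 0.05 it returned 11 members, where 48.2% of all tested genes were below it.

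The precision was enough to bound most of the changes. For 59 of 71 genes the 95% interval of the change lay within 1.2-fold in both directions, and for 70 within 1.5-fold, with Rpl39 as the exception. The median absolute log2 fold change was 0.05 in the family and 0.21 over all tested genes.

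Rpl39, a short basic protein of the large subunit that lines the tunnel through which the new chain leaves, had the largest change. Its CPM was 8.54, 6.71, 4.87, 4.86 and 7.05 in the Sham libraries and 8.29, 8.19, 8.98, 12.1 and 9.56 in the CLP libraries. Sham 1 reached into the CLP range and the other 4 Sham libraries lay below all CLP values. The log2 fold change was 0.56 ± 0.18 (SE, adjusted p = 0.0177, edgeR), on counts that are low for this family and fractional in all libraries. The call was lost without Sham 4 (0.47, adjusted p = 0.0514), without CLP 5 (0.45, adjusted p = 0.0614) or with a replicate block (0.49, adjusted p = 0.0765), and without Sham 1 the change was 0.68.

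Rps2, a small subunit protein at the entrance of the messenger RNA channel, gave the smallest p-value. The Sham libraries had 889, 783, 793, 809 and 798 CPM and the CLP libraries 973, 888, 925, 1078 and 938. Only Sham 1 reached the CLP range, by the margin between 889 and 888 CPM. The log2 fold change was 0.24 ± 0.06 (SE, adjusted p = 0.00529, edgeR), and it passed the test under all 18 other settings that were tried, including one without Sham 1, at 0.27. None of these settings changed how reads were divided, and the counts of Rps2 were fractional in 95% of the libraries.

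Rplp0 carries the stalk to which P1 and P2 bind and through which elongation factors are recruited. It had 834, 763, 805, 830 and 843 CPM in Sham and 906, 900, 873, 955 and 908 CPM in CLP, without overlap. It was the 1 gene of 71 whose libraries did not overlap between CLP and Sham, where 26.1% of all tested genes had no overlap. Its log2 fold change was 0.16 ± 0.05 (SE, adjusted p = 0.0260, edgeR), and the call was lost without Sham 2 (adjusted p = 0.0696), without CLP 5 (adjusted p = 0.0734), with total counts alone (0.10, adjusted p = 0.127), with a replicate block (adjusted p = 0.0946) and without Sham 1 and 2 together (adjusted p = 0.120). The 2 partners that it binds gave 0.02 ± 0.05 for Rplp1 and -0.09 ± 0.06 for Rplp2, neither of which passed.

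Rpl10, which joins the large subunit late in its maturation, had 686, 672, 788, 742 and 716 CPM in Sham and 799, 734, 835, 837 and 857 in CLP. The ranges overlapped through Sham 3 and Sham 4. The log2 fold change was 0.17 ± 0.06 (SE, adjusted p = 0.0397, edgeR), and the call was lost under 12 of 18 other settings, 7 of them without 1 library: Sham 1, 2 or 5 or CLP 1, 4, 5 or 6 (adjusted p from 0.0560 to 0.0997).

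The 2 genes that fell did so by small amounts. Rpl36 had 78.3, 62.4, 66.7, 71.6 and 87.7 CPM in Sham and 68.6, 65.5, 61.9, 61.7 and 60.2 in CLP. Rpl11, the partner of Rpl5 in the 5S particle, had 330, 281, 347, 325 and 348 CPM in Sham and 313, 279, 262, 309 and 291 in CLP. In both genes Sham 2 lay within the CLP range, in Rpl36 Sham 3 as well, and the other Sham libraries lay above it. The log2 fold changes were -0.21 ± 0.08 for Rpl36 (adjusted p = 0.0443, edgeR) and -0.17 ± 0.06 for Rpl11 (adjusted p = 0.0300, edgeR), and the calls were lost under 9 and 8 of 18 other settings. Both were lost without any 1 of Sham 1, 4 and 5 or CLP 3, 4 and 6, that of Rpl36 also without CLP 5 and that of Rpl11 without Sham 3, with adjusted p from 0.0512 to 0.149. Without Sham 1 no member was called lower, and over all runs without 1 library 0 to 7 members were.

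**Figure D2:**
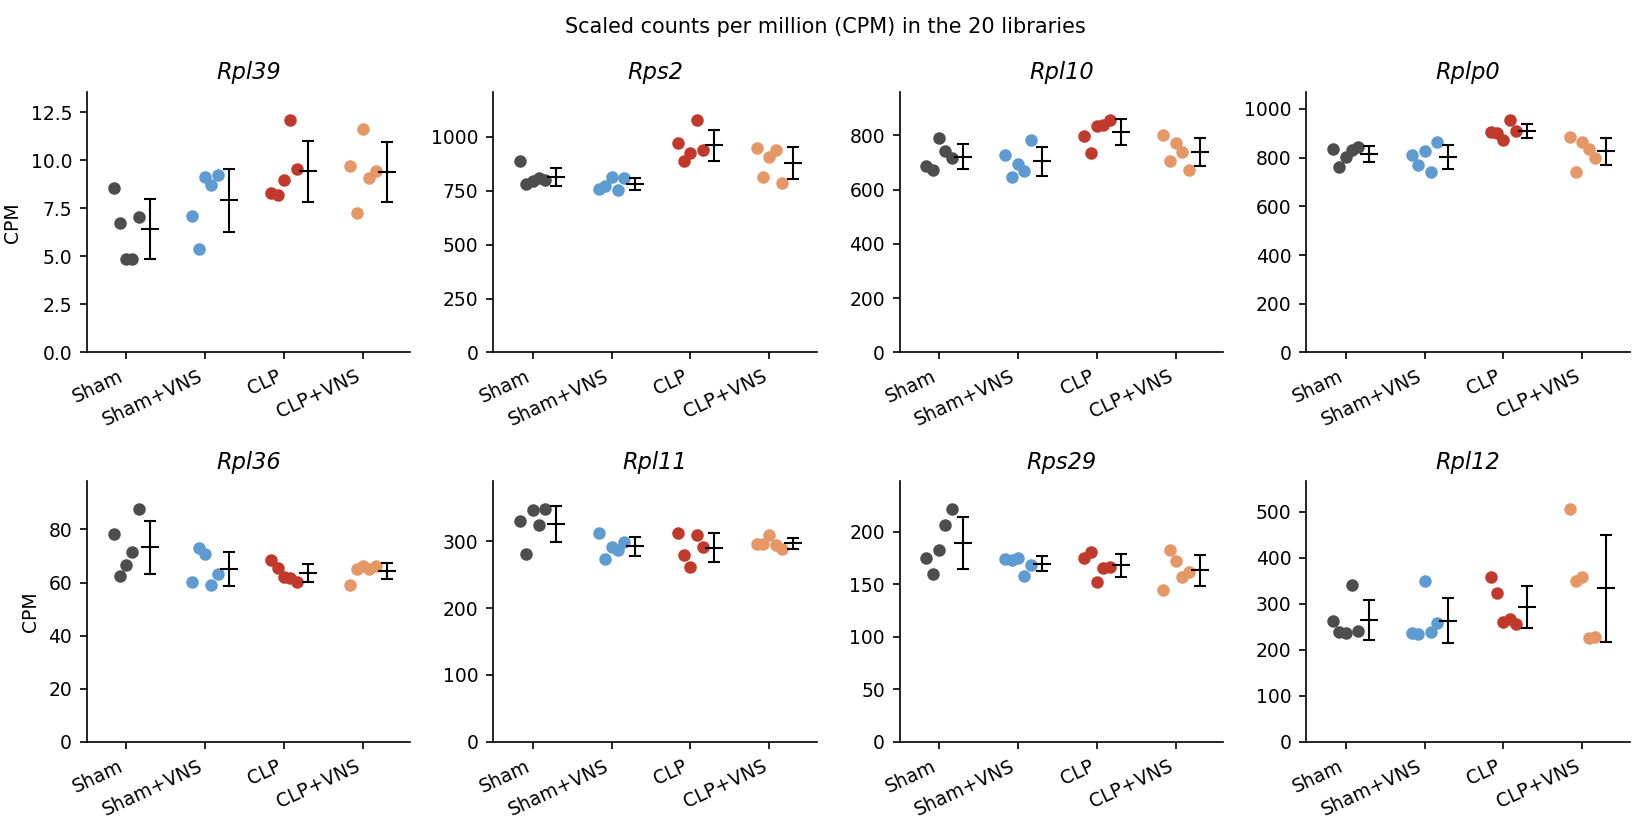
CPM, scaled between libraries, for the 6 genes that passed the test between CLP and Sham, for Rps29, the most abundant by TPM, and for Rpl12. Each point is 1 library, the bar beside each group is the mean and SD of 5 libraries, and every vertical axis starts at 0. Rplp0 separates CLP from Sham, and Rpl12 varies within every group.

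The other genes followed for their roles did not pass. Rpl5, the partner of Rpl11, gave -0.04 ± 0.06, Rps6 0.06 ± 0.06 and Rpsa 0.05 ± 0.05. Rps29, one of the 3 lowest log2 fold changes at -0.17 ± 0.08 (adjusted p = 0.0865, edgeR), had 175, 160, 182, 207 and 222 CPM in Sham and 175, 181, 152, 166 and 167 in CLP. Sham 3, Sham 4 and Sham 5 lay above all CLP values, Sham 3 by a narrow margin. Rpl31, Rps27, Rpl37, Rpl13a, Rps23, Rpl28, Rpl15, Rpl7a and Rpl36a, named for their levels or for another comparison, ranged from -0.09 to 0.03.

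Genes that build ribosomes, but are not part of them, were compared in the same fit. The companion lists were chosen with earlier results of these data known, and their counts are read beside the 19.8% of all genes that were higher and the 20.5% that were lower. Of 39 ribosome assembly genes, 20 rose and none fell, with a median log2 fold change of 0.22. Among them Rcl1, which takes part in 18S ribosomal RNA maturation, rose by 1.195 ± 0.11, Rrp12 by 0.44 ± 0.14, Heatr1 by 0.43 ± 0.09 and the helicase Ddx21 by 0.40 ± 0.06. Of 11 genes of RNA polymerase I and its initiation factors, which transcribe ribosomal RNA, 4 rose and 1 fell, with a median of 0.15: Polr1b gave 0.51 ± 0.11, Taf1a 0.45 ± 0.09, Taf1d 0.31 ± 0.07 and Taf1b -0.34 ± 0.11.

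Some translation factors share the TOP tract with the ribosomal proteins. Of 16 tested, 3 rose and none fell, with a median of 0.06: Pabpc1, the cytoplasmic poly(A)-binding protein, gave 0.66 ± 0.08, Eef1b2 0.26 ± 0.08 and Eif4b 0.17 ± 0.06. Of 20 genes of mTORC1 and translation control, 8 rose and 2 fell, with a median of 0.11. Those with the largest changes were Myc, a transcription factor of ribosome production, at 0.87 ± 0.09, Deptor, an inhibitor of mTOR, at 0.39 ± 0.14, Tsc1 at 0.35 ± 0.12 and Rps6ka1 at 0.29 ± 0.08. The list holds activators and inhibitors of the pathway, so the list's count has no single direction for its activity.

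The mitochondrial ribosome is a separate particle with proteins of its own. Of 74 tested, 1 rose and 18 fell, with a median of -0.08; Mrpl14 fell by 1.36 ± 0.12, Mrps26 by 0.46 ± 0.10 and Mrpl16 by 0.39 ± 0.10 on the log2 scale, while Mrps6 rose by 0.63 ± 0.20. Close relatives of cytosolic ribosomal proteins gave 1 of 6 higher, Rpl36al at 0.15 ± 0.06. All of these lists were measured in the same libraries in which neutrophil markers were higher and T cell markers lower, and the part of those cells was not tested.

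**Figure D3:**
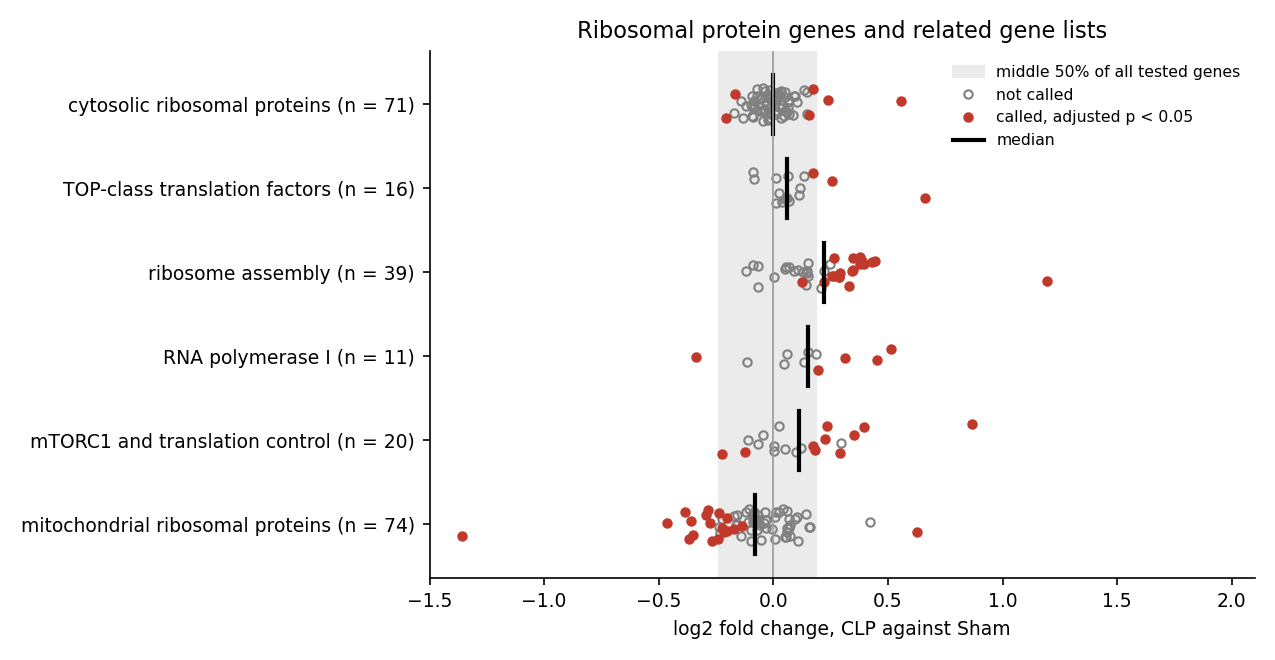
Log2 fold change in CLP against Sham for the 71 genes and 5 related lists, 1 point per tested gene. Filled points passed the test (adjusted p below 0.05, edgeR), black bars are medians, and the grey band is the middle 50% of all tested genes. The cytosolic ribosomal proteins are centred on -0.003 and lie almost all within the band, the assembly genes are centred on 0.22.

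The second comparison asked the same of stimulated animals, CLP+VNS against Sham+VNS, and shares no library with the first. No member passed: 0 of 71, where 27.3% of all tested genes did, 13.9% higher and 13.4% lower. At an unadjusted 0.05 edgeR returned 3 members, beside 37.5% of all tested genes, and DESeq2 called 1 after adjustment. None of the 71 genes separated the groups without overlap, which 18.9% of all tested genes did. The median was 0.02 in the family and -0.005 over all tested genes, and 64 of 71 intervals lay within 1.2-fold.

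Rps2 came closest. It had 756, 774, 813, 753 and 809 CPM in Sham+VNS and 950, 812, 906, 938 and 784 in CLP+VNS, where replicates 3 and 11 lay within the Sham+VNS range and the other 3 above it. The log2 fold change was 0.17 ± 0.06 (SE, adjusted p = 0.0518, edgeR), and DESeq2 called it, with an adjusted p of 0.0214. The highest values otherwise were 0.34 ± 0.19 for Rpl12 and 0.25 ± 0.18 for Rpl39, and the lowest -0.15 ± 0.06 for Rpl17, -0.11 ± 0.06 for Rpl22 and -0.09 ± 0.05 for Rps15, none of which passed. Rplp0 gave 0.04 ± 0.05, Rpl10 0.07 ± 0.06, Rpl36 -0.02 ± 0.08 and Rpl11 0.02 ± 0.06.

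The counts that follow are read beside the 13.9% of all genes that were higher and the 13.4% that were lower. Ribosome assembly genes were again higher, 17 of 39 with none lower and a median of 0.20. They were led by Rcl1 at 1.00 ± 0.11, Rrp12 at 0.58 ± 0.14 and Heatr1 at 0.43 ± 0.09. For RNA polymerase I 4 of 11 rose, Polr1b by 0.52 ± 0.11 and Taf1a by 0.32 ± 0.09 among them. In the mitochondrial list 3 of 74 rose and 5 fell, Mrpl14 by 1.19 ± 0.12 on the log2 scale. Among the TOP-class factors Pabpc1 rose by 0.45 ± 0.08 and Eif3k, a subunit of initiation factor eIF3, fell by 0.14 ± 0.04, and of the genes of mTORC1 and translation control 4 rose, led by Myc at 0.70 ± 0.09, and 1 fell, Tsc2 at -0.24 ± 0.06. Neutrophil markers were higher here too, for 5 of 7 genes, with summed levels of 302 to 656 CPM in Sham+VNS and 1607 to 4380 CPM in CLP+VNS. Markers of T cells were lower for 6 of 7 genes, of B cells for 3 of 5, of alveolar type 1 cells for 3 of 4 and of endothelium for 2 of 5, and those of monocytes and macrophages were higher for 3 of 6 and lower for 1; the part of these cells was not tested.

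Side by side, the changes of the 71 genes in the 2 comparisons had the same sign for 45 genes. Across genes, Pearson's r was 0.65 and Spearman's rho 0.53, given as a description, since genes are not independent replicates and those of 1 library share its depth and scaling. Neither comparison shows by itself that an operation effect differs with stimulation. The interaction, which tests that difference, returned 0 of 71 genes and 0% of all tested genes after adjustment with edgeR; 1 member, Rpl11, was below an unadjusted 0.05, at 0.19 ± 0.08 (adjusted p = 0.572), beside 8.23% of all tested genes, and DESeq2 also called no member. The lowest interaction values were -0.31 ± 0.25 for Rpl39, -0.12 ± 0.08 for Rplp0 and -0.11 ± 0.09 for Rpl10, and the highest besides Rpl11 were 0.19 for Rpl12 and 0.19 ± 0.11 for Rpl36.

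**Figure D4:**
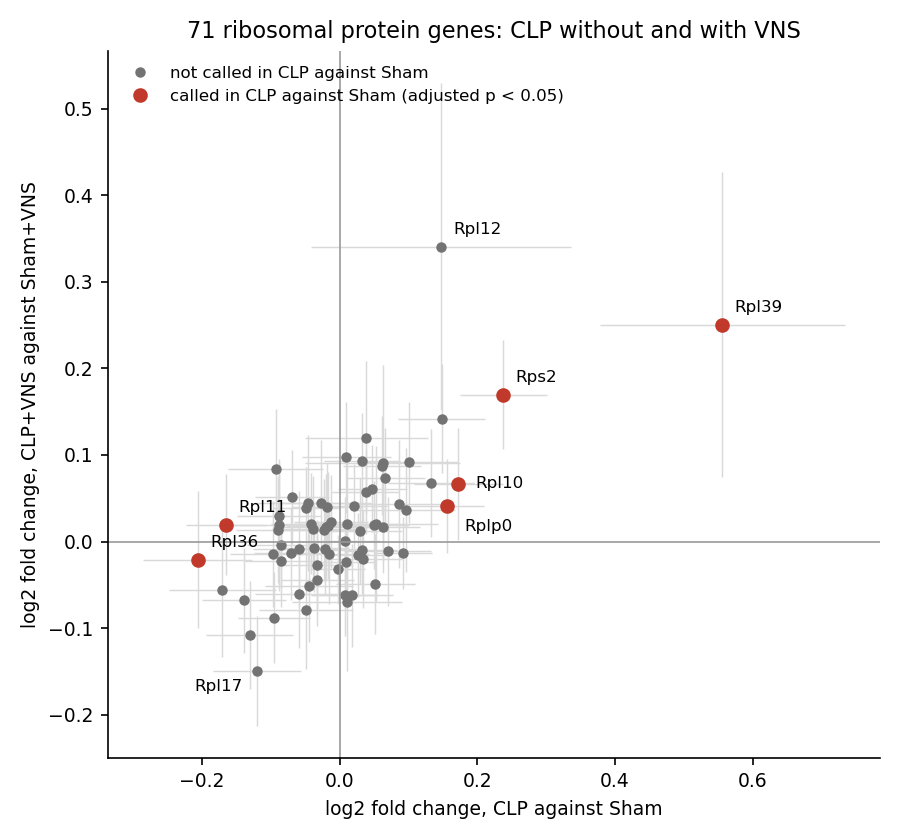
Each point is 1 of the 71 genes, with its log2 fold change in CLP against Sham on the horizontal axis and in CLP+VNS against Sham+VNS on the vertical axis; grey lines are standard errors. Filled red points passed the test between CLP and Sham. Rpl39 and Rps2 are high on both axes, Rplp0 and Rpl10 mainly on the horizontal one.

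With both comparisons averaged in the same fit, an analysis chosen after the single comparisons were seen, 8 of 71 genes passed, 5 higher and 3 lower, where 48.5% of all tested genes did, 23.8% higher and 24.7% lower. Rpl39 (0.40 ± 0.13), Rps2 (0.20 ± 0.04), Rps20 (0.15 ± 0.04), Rpl10 (0.12 ± 0.05) and Rplp0 (0.10 ± 0.04) were higher. Rpl17 (-0.13 ± 0.04), Rpl22 (-0.12 ± 0.04) and Rps15 (-0.09 ± 0.04) were lower, while Rpl36 and Rpl11 did not pass, at -0.11 ± 0.06 and -0.07 ± 0.04. Rps20, which sits in the head of the small subunit, had 170, 141, 178, 179 and 184 CPM in Sham and 193, 189, 177, 195 and 190 in CLP, with CLP 4 inside the Sham range.

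The effect of stimulation was asked after each operation. In CLP+VNS against CLP 0 of 71 genes passed, where 0.027% of all tested genes did, 4 genes in number; at an unadjusted 0.05 edgeR returned 9 members, beside 13% of all tested genes, and DESeq2 called none after adjustment. In Sham+VNS against Sham 0 of 71 genes passed, where 0% of all genes did, and DESeq2 called none. At an unadjusted 0.05 edgeR returned 13 of the 71 members, a larger share than the 8.01% of all tested genes. The members rose and fell together between libraries, so this count is not read as a result. These comparisons share their CLP or Sham libraries with those above.

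Most members nevertheless lay slightly below 0 in both. In CLP+VNS against CLP the median log2 fold change was -0.06, with 64 of 71 genes below 0, and in Sham+VNS against Sham it was -0.08, with 68 of 71 below 0, beside 0.004 and -0.006 over all tested genes. These signs are not 71 separate observations. Within groups the genes rose and fell together from library to library. The median correlation was 0.52 over 2485 pairs of genes across 20 libraries that share depth and scaling, and 96.8% of pairs were above 0. It was not computed for other genes, so whether the family differs from them in this is not known. Leaving out 1 library at a time moved the median between -0.09 and -0.05 in CLP+VNS against CLP and between -0.11 and -0.06 in Sham+VNS against Sham. Averaged over both operations, an analysis also added later, the median was -0.075 and stimulation gave 0 of 71 genes beside 0% of all tested genes. At an unadjusted 0.05 edgeR returned 26 of the 71 members, a larger share than the 13.6% of all tested genes, and these members are not separate observations either.

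The lowest single values in CLP+VNS against CLP were -0.21 ± 0.08 for Rpl14, -0.17 ± 0.06 for Rpl6 and -0.14 ± 0.07 for Rps26. The highest were 0.19 ± 0.19 for Rpl12, 0.03 ± 0.06 for Rpl11 and 0.02 ± 0.08 for Rpl36. In 3 of 71 genes, Rpl18 and Rps7 among them, the groups did not overlap, where 2.26% of all tested genes had no overlap. Neither Rpl18 (-0.11 ± 0.04, adjusted p = 0.279, edgeR) nor Rps7 (-0.08 ± 0.04, adjusted p = 0.383, edgeR) passed.

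In Sham+VNS against Sham the lowest values were -0.17 ± 0.07 for Rpl31, -0.17 ± 0.08 for Rpl36 and -0.16 ± 0.06 for Rplp2, and the highest 0.30 ± 0.18 for Rpl39, 0.03 ± 0.06 for Rpl27 and 0.02 ± 0.07 for Rps28. No member separated these groups, where 0.798% of all tested genes did. Rpl39 had 7.10, 5.36, 9.13, 8.71 and 9.22 CPM in Sham+VNS, and their mean of 7.90 lay between those of Sham and CLP, 6.40 and 9.42, with overlap to both.

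Some genes kept apart from the common movement. Rpl19, Rpl5 and Rps3 followed the family most closely, with median correlations to the other genes of 0.69 each. The lowest were 0.07 for Rps28, 0.15 for Rps29 and 0.16 for Rpl12. The levels of Rpl12 varied within every group. It had 262, 240, 237, 341 and 241 CPM in Sham, 236, 233, 350, 239 and 259 in Sham+VNS, 358, 323, 261, 266 and 256 in CLP, and 506, 350, 359, 226 and 228 in CLP+VNS. Of the 20 libraries 13 lay between 226 and 266 CPM, 6 between 323 and 359 and 1 at 506, with at least 1 library of the middle range in every group. Rpl12 forms the base of the stalk beside Rplp0, whose level shows no such steps. Its counts were fractional in all 20 libraries, and its change in CLP+VNS against CLP rests on 1 library: without replicate 1 of CLP+VNS it was -0.02 in place of 0.19.

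The deposited transcript table allowed the forms of each gene to be followed, an analysis added after the genes had been examined. The 71 genes had 116 transcripts listed; 46 genes had 1 and 25 had 2 or more, up to 7 for Rps24. In 11 genes the leading transcript held less than 95% of the gene's counts. Of 108 member transcripts tested among 38195, 4 rose and 1 fell in CLP against Sham, where 10.9% of all transcripts passed, and 1 rose in CLP+VNS against Sham+VNS, where 6.7% did.

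The transcript that fell is the second most abundant form of Rps24, a gene known for a spliced 3′ end that differs between tissues. It held 33.1, 29.7, 29.1, 27.7 and 28.5% of the gene's counts in Sham, and 25.7, 27.2, 23.8, 22.9 and 25.7% in CLP, without overlap. In Sham+VNS it held 32.1, 33.1, 31.2, 28.7 and 25.2%, and in CLP+VNS 26.1, 28.4, 27.9, 25.9 and 26.3%, where the ranges overlap through replicate 5 of Sham+VNS. Its own level fell by 0.31 ± 0.08 on the log2 scale in CLP against Sham (adjusted p = 0.0132, edgeR), and gave -0.22 ± 0.08 in CLP+VNS against Sham+VNS (adjusted p = 0.119). The leading Rps24 transcript gave 0.03 ± 0.08.

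The second form of Rpl34 was higher, from 6.59, 6.80, 7.13, 5.92 and 5.99% of the gene's counts in Sham to 9.13, 9.45, 8.75, 10.6 and 7.91% in CLP, again without overlap. It held 7.19, 6.88, 7.41, 6.76 and 8.07% in Sham+VNS and 9.07, 8.37, 8.03, 9.31 and 8.52% in CLP+VNS, where 1 pair of libraries overlaps. Its level rose by 0.46 ± 0.10 in CLP against Sham (adjusted p = 0.00339, edgeR) and gave 0.24 ± 0.10 in CLP+VNS against Sham+VNS (adjusted p = 0.178), while the leading Rpl34 transcript gave -0.09 ± 0.05. The calls of these 2 transcripts held under all 13 other settings tried, whereas those of the second forms of Rpl10a (0.41 ± 0.12) and Rpl18 (0.33 ± 0.10) were each lost under 9 of 13. The remaining call in CLP was the single Rps2 transcript, at 0.23 ± 0.06, which was lost under 3 of 13. In CLP+VNS against Sham+VNS a minor form of Rps15a gave 0.57 ± 0.16, a call lost under 10 of 13.

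A test of the share itself, edgeR's diffSpliceDGE over 32609 transcripts, called none of the 62 member transcripts it covered in either comparison, and none at an unadjusted 0.05; it called 0.209% of all transcripts in CLP against Sham and 0.156% in CLP+VNS against Sham+VNS. The level of these forms of Rps24 and Rpl34 thus passed a test and their share did not. In CLP against Sham the unadjusted p of the share was 0.160 for Rps24 and 0.191 for Rpl34 (edgeR diffSpliceDGE). Whether that test could detect changes of this size is not known, so its result does not show that the shares were unchanged. Both forms were singled out after their values were seen. How many of all transcripts have shares without overlap between CLP and Sham was not counted. Counts of transcripts of 1 gene are estimates that depend on each other, and the uncertainty of dividing reads between them is not part of either test.

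**Figure D5:**
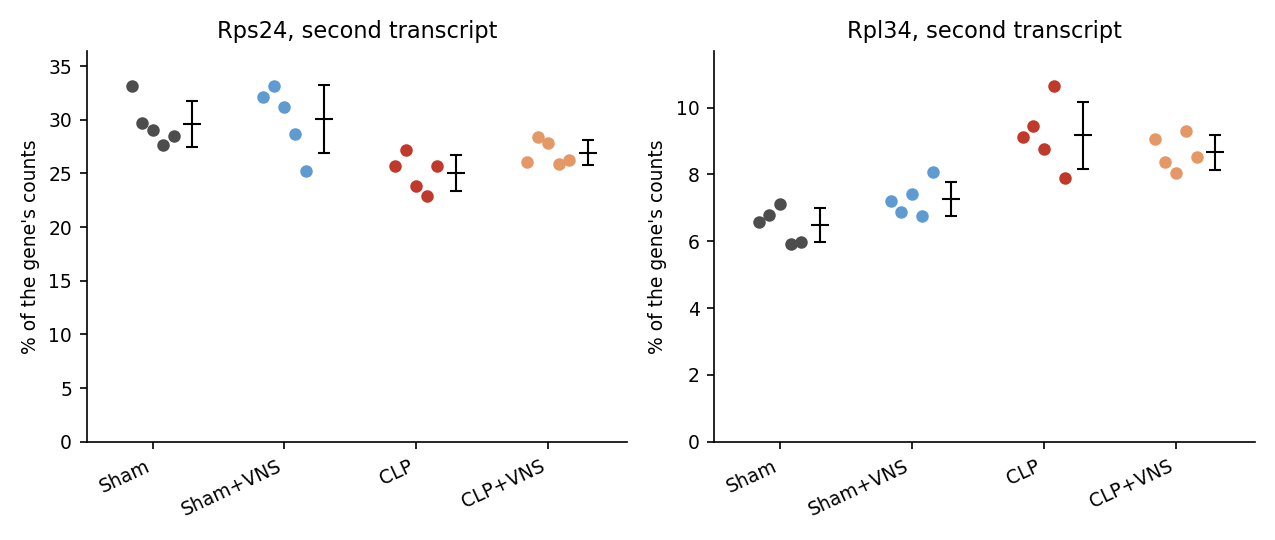
Share of a gene's counts held by its second most abundant transcript, in percent, for Rps24 and Rpl34. Each point is 1 library and the bar beside each group is the mean and SD of 5 libraries; both axes start at 0. The Rps24 form is lower and the Rpl34 form higher in all 5 CLP libraries than in any Sham library. These forms were singled out after their values were seen, and the test of the share called neither.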

How the data were processed

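Lung RNA was poly(A)-selected and sequenced strand-specifically as 150 bp pairs, per the labels' protocols. Expected counts, TPM, FPKM and a scaled signal (counts times 1 factor per library) per gene and per transcript were deposited by the authors, per the file headers; the build was mRatBN7.2 per the submitters' processing notes, and of aligner and counter the sources used here name none. Expected counts were rounded. FPKM and the scaled signal were not used further. Groups came from the labels.

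Genes with enough counts (filterByExpr, minimum 10) were scaled by TMM and tested with edgeR 4.0.16 (R 4.3.3), quasi-likelihood, 4 group means over 20 libraries, Benjamini-Hochberg adjustment at 0.05; p-values measure the spread between animals. Scaled CPM are from this fit, log values used a prior count of 2. DESeq2 1.42.0, other scalings, no filter, a replicate block and leaving out libraries were alternatives. The fit was tested on simulated data.

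The members and companion lists were chosen with earlier results of these data known. Named genes were the members that passed, the 3 highest and 3 lowest changes per comparison, the 5 highest and 5 lowest TPM, and Rplp0, Rplp1, Rplp2, Rpsa, Rps6, Rpl5 and Rpl11; in each companion list, up to 4 with the largest changes that passed. Rps20, Rpl18, Rps7, Rps24, Rpl34, Rpl10a, Rps15a, Rpl19, Rps3 and the steps of Rpl12 were singled out after their values were seen. Values of some single genes are not reported here.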

Additional observations from a re-analysis of the deposited data

Results flagged for a closer look

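In 132 groups of 5 libraries (the summed share, the named genes and 2 transcript shares), 13 had 1 library far from the other 4; chance flags about 1 in 20. Rpl12 was high in Sham 4, at 341 CPM against 237 to 262, and in Sham+VNS 3, at 350 against 233 to 259. Rps2 was high in Sham 1, at 889 CPM against 783 to 809. Rpl31 was low in Sham 2, at 263 CPM against 310 to 327, and high in CLP 6, at 330 against 272 to 282. Rpl6 was low in Sham+VNS 2, at 466 CPM against 518 to 535, and in CLP 3, at 503 against 577 to 607. Rpl28 was low in Sham+VNS 2, at 180 CPM against 205 to 211, and in CLP+VNS 3, at 181 against 203 to 211. Rps27 was low in Sham+VNS 1, at 142 CPM against 173 to 184. Rpl22 was low in CLP 3, at 98.3 CPM against 108 to 110. In CLP+VNS, Rpl36 was low in replicate 1, at 59.0 CPM against 64.9 to 66.4, and Rps15 high in replicate 5, at 321 CPM against 276 to 287. CLP 3 and Sham+VNS 2 each appear under 2 genes and every other library named here under 1.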

How the results depend on the processing

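With scaling by total count alone, 2 members were higher and 8 lower in CLP against Sham, 1 was lower in CLP+VNS against Sham+VNS, and the member transcripts called higher were 1 and 0; all genes split 2341 higher to 3763 lower, with their median at -0.06. Fitting only the groups compared left 0 lower, and leaving out Sham 1 and Sham 2 together, chosen after seeing the data, gave 7 lower. DESeq2 called 1 member higher in CLP+VNS against Sham+VNS, as did RLE factors, and 9 transcripts higher and 2 lower in CLP against Sham. Leaving out 1 library at a time gave 1 to 4 members higher and 0 to 7 lower in CLP against Sham, 0 to 1 higher and 0 to 1 lower in CLP+VNS against Sham+VNS, 1 to 3 transcripts higher and 1 to 4 lower in CLP against Sham, and 0 to 1 higher in CLP+VNS against Sham+VNS. The medians of all 5 comparisons moved by less than the spread between libraries, which is a wide measure for medians near 0. With total counts alone the members' median in CLP against Sham went from -0.003 to -0.054. In CLP+VNS against Sham+VNS it went from 0.017 to -0.019.

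The labels do not say that equal replicate numbers pair animals. Over 22 pairs of equal number the deviations correlated from -0.163 to 0.178, beside -0.264 to 0.233 over 128 other pairs. A correlation over all tested genes does not settle whether animals were paired. With a replicate block 1 member was higher in CLP against Sham and 1 in CLP+VNS against Sham+VNS, Rpl12 at 0.58. Changes near 0 turned sign. Rpl11 in CLP+VNS against Sham+VNS was -0.015 with total counts and -0.028 with the replicate block, and from -0.0037 to 0.042 without 1 library. Rpl36 in CLP+VNS against CLP was -0.051 with the replicate block. Without 1 library, Rpl36 ran from -0.056 to 0.023 in CLP+VNS against Sham+VNS and from -0.0065 to 0.040 in CLP+VNS against CLP, and Rpl11 in the latter from -0.010 to 0.052. Rpl12 ran from -0.018 to 0.298 in CLP+VNS against CLP and from -0.0094 to 0.315 in the interaction, each lowest without CLP+VNS 1. Rps28 ran from -0.033 to 0.085 in Sham+VNS against Sham. The cause of these changes was not tested. Rpl39, at 4.86 to 12.1 CPM, has the lowest counts and the second widest interval in CLP against Sham.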
